A study of Mus musculus with 20 samples.

Results

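Peaks around Nanog, Dppa3 and Gdf3 were taken from all 18 deposited lists of a chromatin immunoprecipitation series in mouse cells. A peak was included when its midpoint lay on chromosome 6 between 122520000 and 122800000 in build mm9, a window of 280 kb. That gave 629 of the 765133 peaks in the series. The series mapped Sox2, Sox17 and their partner Oct4 (Pou5f1) in pluripotent cells and in cells turned toward primitive endoderm. In KH2 embryonic stem (ES) cells, doxycycline at 1 µg/ml was added to induce a Sox protein that could be precipitated through a V5 tag. The proteins were Sox2, Sox17, Sox2KE and Sox17EK, where the mutants exchange a lysine of Sox2 and a glutamate of Sox17. Sox2 and Sox17EK thus carry the lysine, and Sox2KE and Sox17 the glutamate. There were 2 Sox libraries per protein, called A and B, and 7 libraries of Oct4 from these lines, with 2 for each line except Sox17, which had 1. F9 embryonal carcinoma cells gave 1 Oct4 library untreated, and 1 Oct4 and 1 Sox17 library after 1 µM retinoic acid (F9+RA), which starts that change. Each Sox protein was expressed in its own line, so protein and line cannot be told apart. The Sox17 libraries of ES cells name a Sox17 antibody beside the V5 antibody, whereas the other ES Sox libraries name V5 alone. Those of Oct4 name Oct4 and V5 in ES lines and Oct4 in F9 cells. The labels do not say how both antibodies were used. Signal of the tagged Sox protein thus cannot be separated from that of Oct4 in the ES lines.

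Nanog encodes a homeodomain protein that, with Oct4 and Sox2, maintains the pluripotent state. Dppa3 encodes a maternal and germ-cell protein that protects DNA methylation in the early embryo, and Gdf3 a TGF-β family ligand. These genes lie side by side in a cluster that is active in pluripotent cells. Sox2 and Oct4 can bind together to a composite element made of a Sox site and an octamer. In its canonical form 1 base lies between the Sox site and the octamer, and in the compressed form none does; the pair of Sox17 and Oct4 is known for the compressed form. The RefSeq order of protein-coding genes is Gdf3, Dppa3, Nanog, Slc2a3, with Nanog at about 122.658 to 122.665 Mb in mm9. Sites are named by their distance in kb from the approximate Nanog start, negative toward Dppa3 and Gdf3. No site was assigned to Dppa3 or to Gdf3, because the gene table used here belongs to another build.

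The stretch before the Nanog start is shown because it holds a composite element. RefSeq (GRCm38.p6) lists 2 promoter windows for Nanog, and these overlap; Dppa3 and Gdf3 were not in the promoter table. The 250 bases before the first start, chr6:122707239-122707488 on the plus strand in GRCm38.p6, read as follows, with the composite element in capitals.
Nanog: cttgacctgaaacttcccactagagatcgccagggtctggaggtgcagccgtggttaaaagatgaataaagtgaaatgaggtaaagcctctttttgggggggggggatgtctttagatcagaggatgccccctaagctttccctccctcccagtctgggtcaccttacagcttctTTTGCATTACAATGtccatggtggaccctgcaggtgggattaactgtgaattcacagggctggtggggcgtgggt
The capitals read CATTGTNATGCAAA on the opposite strand, the Sox letters CATTGT followed, after 1 base, by the octamer letters ATGCAAA. The element lies 75 to 62 bases before the first start and 151 to 138 bases before the second. Both strands of 32851 promoter windows of 300 bases were searched for these exact letters. The Sox letters were in 12.6% of the windows, the octamer letters in 4.63%, and both in 0.813%, with joined matches counted in each. The canonical joined element was in 2 windows (0.00609%), and these were both Nanog's. The compressed element, CATTGTATGCAAA, was in 1 window (0.00304%), of another gene. Of 18 other pluripotency genes listed for comparison, 13 were in the table. Sox letters were in the windows of 2 of them (Esrrb and Pou5f1), octamer letters in 2 (Sox2 and Zfp42), and a joined element in 0. A match of letters is a description of the sequence, not a measured binding site, and whether a peak covers it in mm9 was not analysed here.

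Peaks were dense around these genes in every library. The window held 8 peaks of Sox17 ES B and 82 of Oct4 F9+RA, with the other libraries in between. Of 9444 windows of equal length across the genome, only 0.0212% (Sox17EK ES A) to 0.794% (Oct4 Sox2KE line B) held at least as many peaks of the same list. The lists were of unequal length, from 5836 peaks (Sox17 ES B) to 84196 (Oct4 F9+RA), and the reads behind them are unknown. F9 libraries had more peaks in a wide region here: 1.12%, 1.33% and 1.69% of their lists lay in the 10 Mb centred on the window. In ES libraries the share was 0.556% to 0.667%. The part of that regional excess in the F9 counts was not tested. Sox17 lists of ES cells had wide peaks, with medians of 970 and 873 bp against 312 to 680 bp in the other ES Sox lists.

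**Figure D1:**
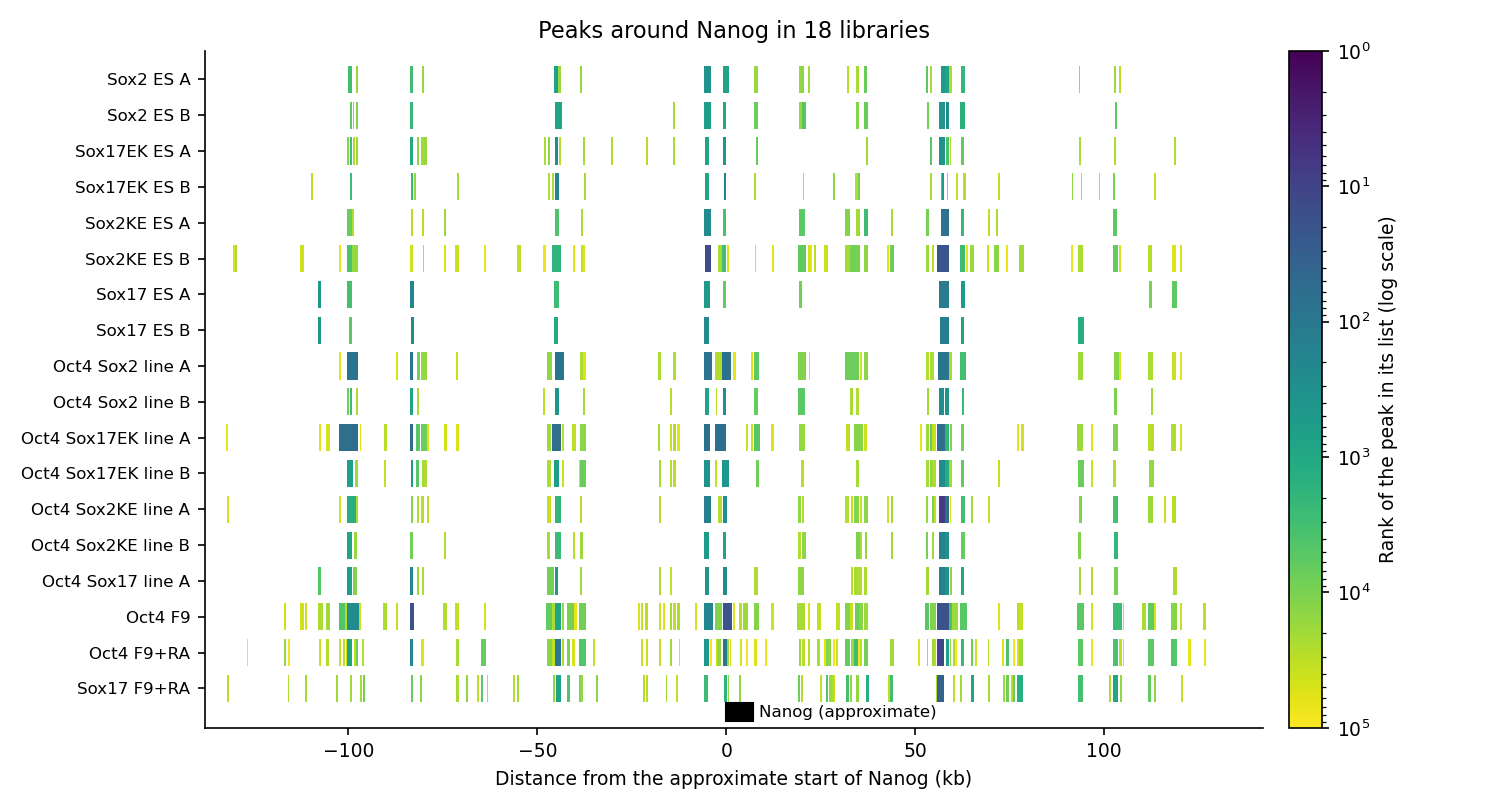
Each row is a library and each bar a peak, placed by its distance in kb from the approximate start of Nanog (black bar) and coloured by its rank in its own list on a log scale, dark being strongest. Columns of dark bars recur in nearly every library at −99, −83, −45, −5, 0, 57 and 63 kb, and the 3 F9 rows carry more peaks between them.

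Overlapping peaks of all lists were joined into sites, which gave 101 sites in the window and 190862 in the genome. Peaks of all 18 libraries met at 6 of the 101 sites (5.94%), against 0.430% of sites genome-wide. At 11 sites (10.9%) at least 15 libraries had a peak, against 3.29% genome-wide. Another 33 sites (32.7%) came from F9 libraries alone and 14 (13.9%) from ES libraries alone, against 27.3% and 42.3% genome-wide. These shares describe the window and were not tested.

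Because scores of different lists are not on 1 scale, the libraries were compared by rank, where 1 is the strongest peak of a list and a lower number is stronger. The authors' score, used to rank the peaks, is given beside the rank where it helps. The site at 57 kb (122713730 to 122716990) was the strongest in the window, with a median rank of 124 over 18 libraries. Only 0.0178% of sites in the genome had a median rank at or below that. Next came the site at −5 kb (122651963 to 122654367) with a median rank of 370, and the site at the Nanog start (122655034 to 122659390) with 450. On the side of Dppa3 and Gdf3, the sites at −45 kb (122610358 to 122615153), −83 kb (122574156 to 122575287) and −99 kb (122555366 to 122560789) had median ranks of 744, 956 and 2529. A site at 63 kb (122719727 to 122722010) had 2861.5. Each of these 7 sites lay among the strongest 0.642% of the genome's sites by that measure, and the remaining sites held by at least 15 libraries, at −38, 20, 34 and 103 kb, had median ranks of 7637.5 and above.

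**Figure D2:**
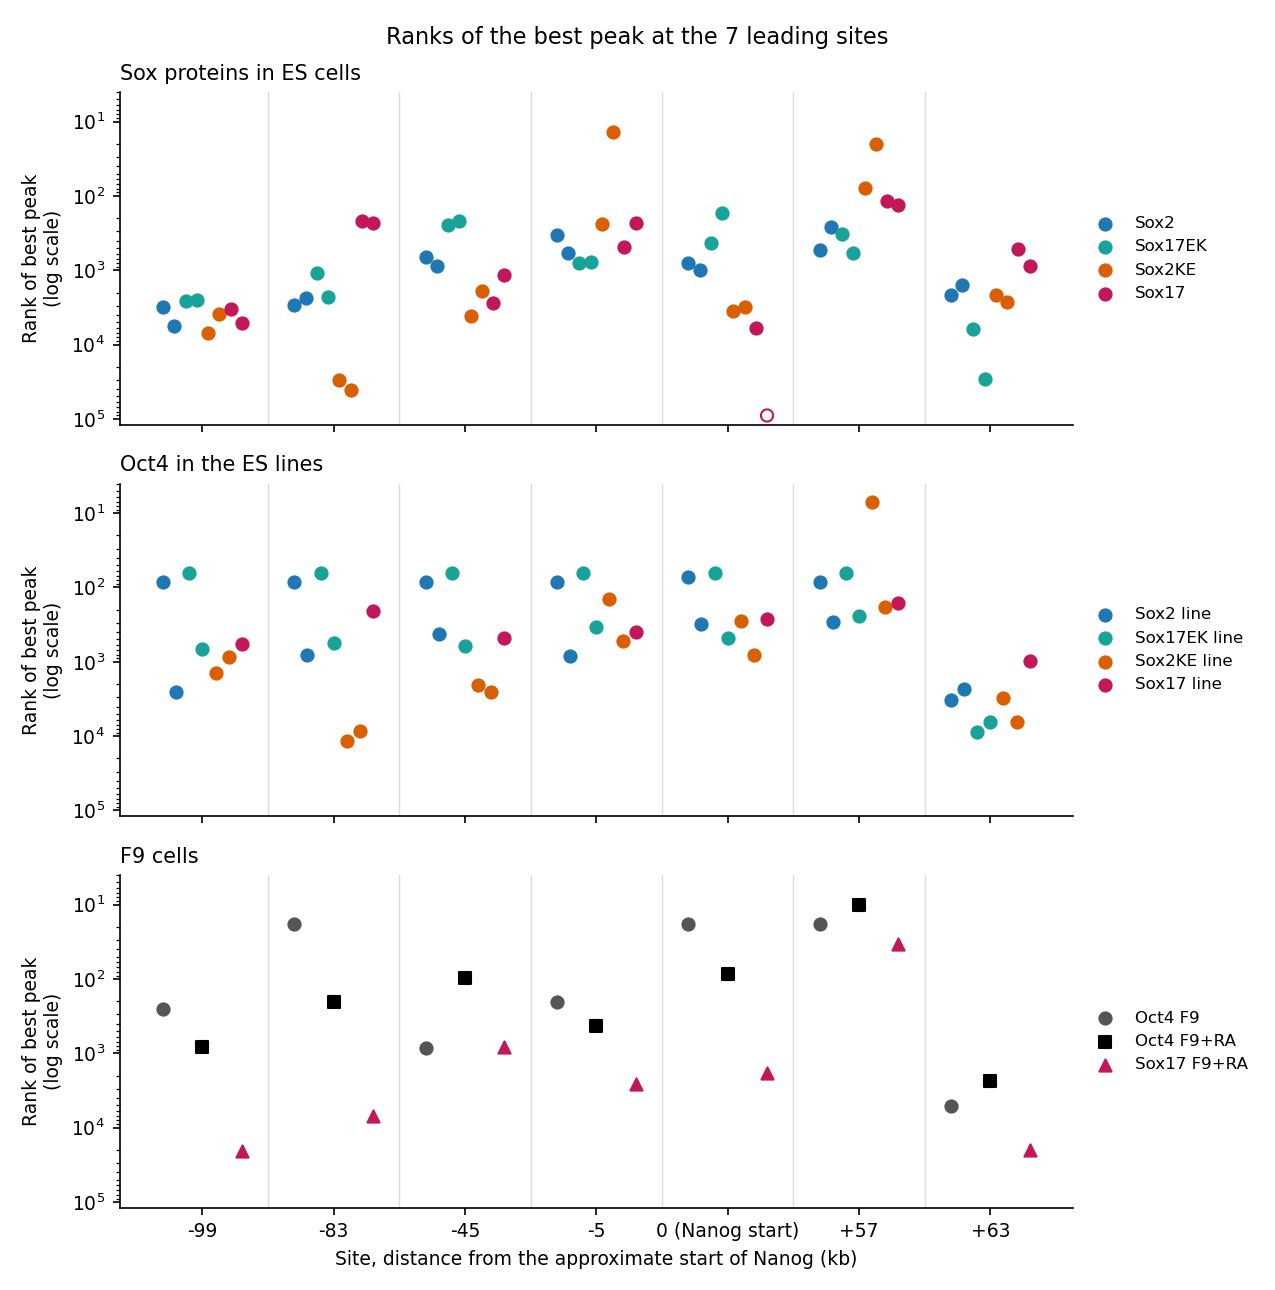
Rank of the best peak (log scale, strongest at the top) at the 7 leading sites, for 8 ES Sox libraries, 7 Oct4 libraries of ES lines and 3 F9 libraries; each point is a library and the open circle at the bottom marks a library without a peak. At the Nanog start the lysine proteins Sox2 and Sox17EK lie above the glutamate proteins Sox2KE and Sox17, and at −83 kb Sox2KE lies far below the other proteins.

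At the Nanog start the proteins with lysine had peaks of better rank than those with glutamate. Sox2 peaks ranked 801 (A) and 997 (B), and Sox17EK peaks 425 and 170. Sox2KE peaks ranked 3555 and 3101, and Sox17 had a peak of rank 6047 in library A and none in library B. The 4 lysine libraries thus lay apart from the 4 glutamate libraries. For the test, ranks were limited at the length of the shortest list, 5836, and a missing or weaker peak was set to the next rank. Geometric mean ranks were then 490 for lysine and 4402.3 for glutamate, a difference of −0.95 in log10 rank (SD 0.344 and 0.144, n = 4 libraries each). Each side held 2 proteins with 2 libraries each, and the test treated all libraries as separate units. An exact permutation test (two-sided) gave p = 0.0286, the lowest possible with 4 libraries a side, and 0.604 after Benjamini-Hochberg adjustment over 19658 sites, so the difference did not pass the correction. It kept its sign, and the groups their separation, in all 15 alternatives run for it, with differences of −1.15 to −0.31. As a percent of the own list the gap was narrow, since Sox2KE B, the longest ES Sox list, had its start peak in the top 4.33% and Sox2 B in the top 4.17%.

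The residue groups also differed in a ratio taken within each library, of the start site to the neighbouring −5 kb site, which needs no common scale of scores. At −5 kb, Sox2 ranked 334 and 590, Sox17EK 793 and 785, Sox2KE 237 and 14, and Sox17 486 and 234. Geometric mean ranks there were 592 for lysine and 139 for glutamate, the opposite order to the start. All 8 libraries had a strong peak there, and the ranks of both residue groups overlapped (exact two-sided permutation p = 0.0571, adjusted p = 1.00). The score at the start was 1.34 and 1.86 times that at −5 kb for Sox17EK, and 0.718 and 0.795 times for Sox2. It was 0.294 times in both Sox2KE libraries and 0.234 times in Sox17 A, with no start peak in Sox17 B. Oct4 showed no such split: the ratio was 0.783 and 0.865 in the Sox2KE line, 1.20 in the Sox17 line, and 0.882 to 1.45 in the lysine lines, where 2 libraries have tied top scores. This ratio was added after the values were seen and was not tested. A low ratio can come from a strong −5 kb peak as well as from a weak start peak. In F9+RA cells, Sox17 had a start peak of rank 1814, with a score 1.20 times that at −5 kb.

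**Figure D3:**
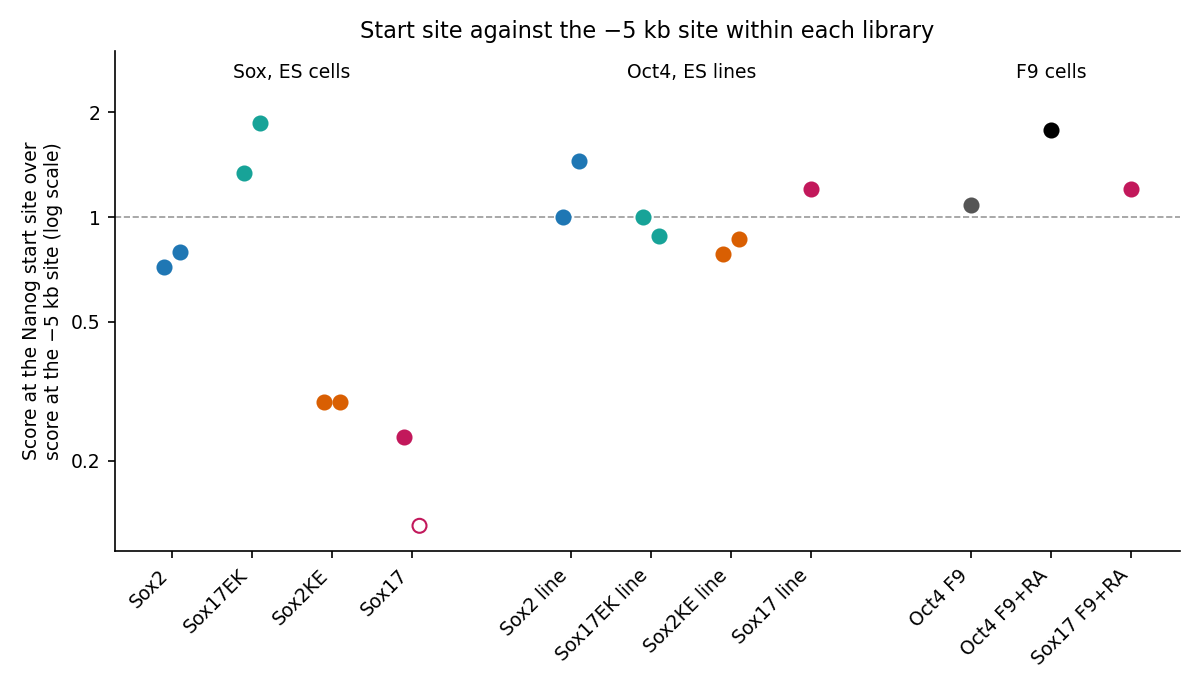
The score at the Nanog start site divided by the score at the −5 kb site of the same library (log scale; the dashed line marks 1), by protein for ES Sox libraries, by line for Oct4, and for F9 cells; each point is a library and the open circle is Sox17 ES B, which had no start peak. Among the ES Sox libraries, Sox2KE A and B and Sox17 A lie at 0.294 and below. Sox2, Sox17EK and every Oct4 library lie at 0.718 or above, and Sox17 of F9+RA cells lies at 1.20.

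Of 15 window sites tested, the ranks of lysine and glutamate libraries did not overlap at 3. Lysine was stronger at the start and at −45 kb, where genome-wide 3.98% of tested sites had lysine stronger without overlap, and glutamate was stronger at 57 kb, where the genome-wide share was 0.753%. At −45 kb Sox2 ranked 656 and 880, Sox17EK 246 and 221, Sox2KE 4084 and 1907, and Sox17 2741 and 1148. The difference was −0.72 in log10 rank, with geometric means of 421 for lysine and 2225 for glutamate (exact permutation p = 0.0286, adjusted p = 0.604). With ranks taken as a percent of the own list the groups overlapped there.

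The strongest site, at 57 kb, had the opposite order. Sox2KE ranked 79 and 20 and Sox17 117 and 132, against 540 and 264 for Sox2 and 322 and 594 for Sox17EK. Geometric means were 70.3 for glutamate and 406 for lysine (log10 difference 0.76, exact permutation p = 0.0286, adjusted p = 0.604). Here the shape of the peaks differed as well. Each Sox2KE and Sox17 library had 1 peak across the site, of 2168, 3176, 2803 and 2536 bp, while the lysine libraries had 2 or 3 peaks, the best being 479 to 1488 bp wide. Over whole lists, median peak widths were 589 and 680 bp for Sox2KE and 970 and 873 bp for Sox17. Those of Sox2 were 520 and 601 bp, and those of Sox17EK 453 and 312 bp. The width of peaks thus differed between these lists as a whole too. With ranks as a percent of the own list the groups overlapped at 57 kb too, Sox17 at 1.14% and 2.26% lying within or above the 1.10% to 1.68% of the lysine libraries, while Sox2KE stayed apart at 0.239% and 0.0279%. With sites built from midpoints in place of overlaps, the strongest midpoint site in this stretch by median rank gave a difference of opposite sign, −0.62. Midpoints of the best peaks here ranged from 122714702 to 122716486, so that site need not hold the best peak of every library. Over all 19658 sites, 930 had an unadjusted p under 0.05 and 0 an adjusted one.

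The site at −83 kb separated Sox2KE from the other 3 proteins. Sox17 ranked 220 and 231 there, with scores of 464 and 292. Sox17EK ranked 1098 and 2268 and Sox2 2907 and 2359. Sox2KE had only weak peaks, of rank 29927 and 41472 with scores of 54.8 and 104. The ranks of the Sox17 forms and of the Sox2 forms did not overlap (geometric means 596 and 3909.7, Sox2 forms minus Sox17 forms 0.82 in log10 rank, exact permutation p = 0.0286, adjusted p = 0.472). It was the only 1 of 15 window sites without overlap in that comparison; genome-wide 0.997% of sites had the Sox17 forms stronger and 5.06% the Sox2 forms. With only scores of at least 100, or ranks limited at 1000, the groups overlapped at −83 kb.

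Oct4 at −83 kb was also weakest in the Sox2KE line, while its ranks in the other lines overlapped. In the Sox2KE line it ranked 11779 and 8437, with scores of 295 and 268. It ranked 210 for the Sox17 line, 84 and 815 for the Sox2 line, and 64 and 559 for Sox17EK. Many peaks share the top score in the A libraries of the lysine lines (690 with Sox2, 862 with Sox17EK), so the ranks of 84 and 64 are the first of tied groups. Oct4 of F9 cells ranked 18 there and Oct4 of F9+RA cells 202, while Sox17 of F9+RA cells ranked 6881. Relative to the −5 kb site of the same library, the score at −83 kb was 0.0507 and 0.0332 times for Sox2KE and 0.367 to 1.47 times for the other 6 ES Sox libraries. For Oct4 it was 0.129 and 0.256 times in the Sox2KE line and 0.824 to 1.31 times in the other 5 ES libraries. In the A libraries of the Sox2 and Sox17EK lines both sites had the tied score of 3100, so their ratio of 1.00 says little. Both comparisons with Sox2KE were added after the values were seen and carry no test. Because the Oct4 libraries of ES lines also name V5, Oct4 and the tagged Sox protein cannot be told apart in them.

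**Figure D4:**
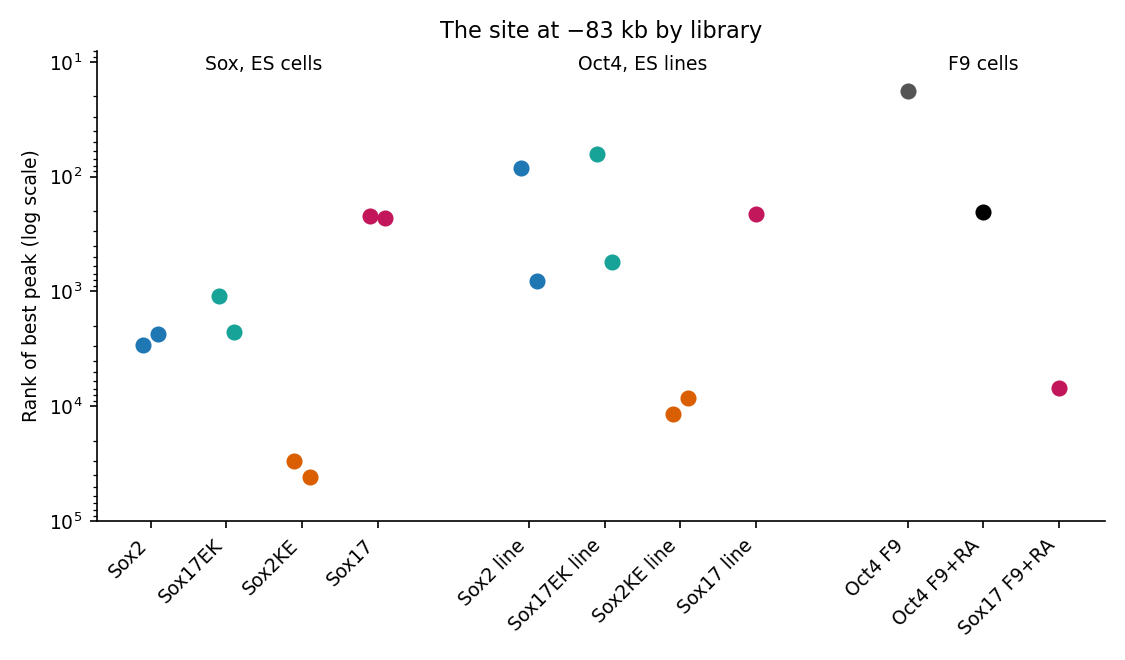
Rank of the best peak at the −83 kb site (log scale, strongest at the top) for each Sox protein in ES cells, for Oct4 in the same lines and for F9 cells; each point is a library. Sox2KE (29927 and 41472) lies lowest among the Sox libraries and the Sox2KE line (11779 and 8437) lowest among the Oct4 libraries.

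Setting Sox2KE against the other 3 proteins in the same way gave 2 window sites without overlap. Sox2KE was weaker at −83 kb, where the genome-wide share was 1.42%, and stronger at 57 kb, where it was 9.07%. Oct4 in the Sox2KE line was weaker than in the other lines at 4 of 34 window sites, at −83, −82, −45 and 8 kb, with a genome-wide share of 8.59%. It was stronger at 3, at 44, 53 and 103 kb, with a genome-wide share of 14.0%. At −45 kb it ranked 2041 and 2525, against 64 to 613 in the other lines. As a percent of the own list, 5 of these 7 sites kept the separation, −82 and 53 kb being the exceptions. At 44 kb (122701206 to 122702252), the Sox2KE line alone among the Oct4 libraries of ES cells had peaks, of rank 18292 and 20497. The only ES Sox peaks there were those of Sox2KE, of rank 22609 and 7499, and Sox17 of F9+RA cells had a peak of rank 3052.

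Sox17 stood apart from the other 3 ES proteins at 4 window sites. At −108 kb (122549801 to 122551151) it ranked 434 and 461, with scores of 332 and 206, and no other ES Sox library had a peak. Oct4 in the Sox17 line ranked 4326 there, and Oct4 in the Sox17EK line had 1 weak peak, of rank 61273. Sox17 of F9+RA cells had none at this site, while both Oct4 libraries of F9 cells had weak peaks of rank 23534 and 38219. Sox17 was also stronger at −83 kb and at 63 kb, where it ranked 526 and 879 against 1581 to 28767 for the other proteins, and weaker at the Nanog start. The Sox17 lists are the shortest of the ES Sox lists, and as a percent of the own list Sox17 stayed apart at −108 kb and at the start but not at −83 kb or 63 kb. Genome-wide, 7.68% of tested sites had Sox17 stronger without overlap and 0.819% the other proteins. This comparison was added later and carries no test, and the Sox17 antibody named for these libraries cannot be told apart from the protein.

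Oct4 had a peak at all 7 leading sites in every ES library, but these sites were chosen by ranks that included the same lists. Its ranks overlapped between lysine and glutamate lines at each of these sites. At the Nanog start, Oct4 ranked 73 and 315 with Sox2, 64 and 474 with Sox17EK, 284 and 804 with Sox2KE and 264 with Sox17 (log10 difference −0.38, exact permutation p = 0.343, adjusted p = 0.942). Every ES line thus had Oct4 peaks of rank 804 or better at the start. Of 34 window sites tested, 1 had lysine lines stronger without overlap, at 8 kb (122665260 to 122666780), where genome-wide the share was 4.55%. Oct4 ranked 5705 and 6608 there with Sox2 and 4846 and 8364 with Sox17EK, against 24397 with Sox17 and no peak with Sox2KE. Glutamate lines were stronger at 2, at 53 and 103 kb, with a genome-wide share of 4.05%. At 103 kb (122760173 to 122762793), Oct4 ranked 3341 and 1994 in the Sox2KE line and 8838 in the Sox17 line, against 10447 to 25636 in the lysine lines. As a percent of the own list the separation held at 8 kb and was lost at 53 and 103 kb. The exact permutation p was 0.0571 at each of these 3 sites, the smallest that 4 against 3 libraries allow, and 0.665 adjusted over 59619 sites.

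In F9 cells Oct4 had peaks at the leading sites, which were chosen by ranks that included the F9 lists. Untreated, it ranked 18 at −83 kb, at the start and at 57 kb, among 134 peaks tied at the top score, and 252, 843, 205 and 5121 at −99, −45, −5 and 63 kb. After retinoic acid it ranked 832, 202, 98, 429, 86, 10 and 2346 at the 7 sites from left to right. Sox17 of F9+RA cells had its best peak of the window at 57 kb too, with rank 34 and a score of 1407. At the other leading sites it ranked 831 (−45 kb), 1814 (start), 2600 (−5 kb), 6881 (−83 kb), 19982 (63 kb) and 20676 (−99 kb). Outside the leading sites its strongest peaks lay to the right of Nanog, with ranks of 903 at 103 kb, 926 at 65 kb, 1367 at 37 kb and 1456 at 78 kb. Of the 8 ES Sox libraries, Sox2KE B alone had a peak at 65 kb and at 78 kb, of rank 18785 and 19014, and no Sox17 library of ES cells had a peak at 37, 65, 78 or 103 kb. With 1 library per F9 condition these differences have no replicate check.

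Sites whose ranks over the 18 libraries came nearest to those of the 57 kb site were found on chromosomes 5, 12 and 18. The closest, on chromosome 5 at 123584186 to 123590613, differed by 0.462 in log10 rank on average, a factor of 2.90, and had a median rank of 110. That on chromosome 12 at 87841912 to 87847863 differed by 0.505 and had a median rank of 98. Sox17 of F9+RA cells, at rank 34 for the 57 kb site, ranked 900 and 2032 at these. Other libraries differed widely too. On chromosome 5, Sox2KE ES A ranked 1704 against 79 at 57 kb, and Sox17 ES B 1535 against 132. On chromosome 18, Oct4 of untreated F9 cells ranked 5245 against 18.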

How the data were processed

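Peaks were measured by chromatin immunoprecipitation and sequencing in 20 samples, of which 18 had a peak list; the 2 mock samples are not analysed here. Each deposited list gives chromosome, start, end, a name with the MACS prefix and a number, the authors' score, read from its values (lowest 50.0 in every list) as a scaled −log10 p-value; no label states the scale. The build is mm9, per the submitters' processing notes. Deposited starts were read as counting from 0 and are printed from 1. For aligner, caller version and control, nothing is given in the sources used here. The read depth of each list is unknown.

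Peaks overlapping by at least 1 bp across lists formed a site, and a library's value there was the rank of its best peak, tied scores taking the lowest rank. Ranks were limited at the shortest compared list (5836 for Sox, 32848 for Oct4 in ES lines). Mean log10 ranks of library groups were set against each other by an exact permutation test (two-sided), adjusted by the Benjamini-Hochberg method over all sites of the genome held by a compared library within the limit. Named were window sites held by at least 4 libraries or holding a library's best peak. Alternatives changed the joining of sites, the rank scale and limit, a score minimum, the libraries and the pairing of replicate letters. Members and lists were chosen with earlier results of these data known; comparisons of Sox2KE or Sox17 with the rest, and score ratios within a library, were added after the values were seen. The motif search used RefSeq promoters of GRCm38.p6, so no sequence was read at mm9 positions, and the 18 listed genes could not be compared by peaks.

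The labels name no separate cultures for replicates A and B, so p-values cover the spread of these libraries only, and that may be technical. The permutation treated A and B of 1 line as separate units, though they share a protein and a line. The p-values thus do not measure the spread between proteins or lines of a group. Site making and the rank comparison were tested on simulated lists whose sites lay far apart, so the joining of close or wide peaks was not tested. Python 3.11.15, NumPy 2.4.6, pandas 2.3.3, SciPy 1.17.1 and Matplotlib 3.10.9 were used.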

Additional observations from a re-analysis of the deposited data

Results flagged for a closer look

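At the −83 kb site the lysine form was stronger on the Sox2 backbone and weaker on the Sox17 backbone. The difference in mean log10 rank over whole lists, lysine minus glutamate, was −1.13 for Sox2 against Sox2KE and 0.85 for Sox17EK against Sox17, with every library of a backbone on its own side. The difference between backbones itself was not tested. Of 21 groups of libraries examined for a single library far from the others, 0 had one. The rule asked for a gap to the next library that filled most of the group's range. Each group pooled the libraries of both proteins or lines of a residue, so a whole protein lying apart could not be flagged. With so few libraries, the count of 0 does not show that no library was unusual.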

How the results depend on the processing

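With sites built from midpoints, the window held 162 sites and 2 were held by all 18 libraries, against 101 and 6; with scores of at least 100, 59 and 3; and with the 5836 strongest peaks of each list, 29 and 3. In the same midpoint sites, lysine minus glutamate at 57 kb reversed to −0.62, taken at the strongest midpoint site within the joined one. With ranks as a percent of the own list, the share of genome sites without overlap was 2.60% (4.73% as reported) for Sox residues and 4.78% (8.59%) for Oct4, and the Sox2 and Sox17 forms separated at 4 window sites in place of 1. They separated at 0 with ranks limited at 1000 and with scores of at least 100, and Oct4 lines at 0 in place of 3 with ranks limited at 1000. For these counts of the Sox2 and Sox17 forms, and for the Oct4 count of 0, no genome-wide share is given here. Whether they lie near the background thus cannot be read from them. Leaving out 1 library at a time gave 3 to 7 window sites and shares of 10.1% to 28.4% for Oct4, with 7 sites and 28.4% without the Sox17 line and 7 sites and 16.6% without Sox2 line B. For Sox residues the shares were 5.43% to 7.52%, the highest without Sox2KE A. Without both Sox17 libraries, Sox residues separated at 7 window sites and 16.8% of genome sites, and lysine minus glutamate at −83 kb, 0.25 with all libraries, was −1.07. Fewer libraries leave fewer ways to overlap. Of 412 alternatives for 31 results at named sites, 393 were counted as unchanged. In 7 a separation was lost, in 10 one appeared, and 2 were counted as reversed. A result without separation before and after the change was counted as unchanged whatever its sign, so the 393 do not show that direction was kept.

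Deviations of same-letter libraries correlated between −0.13 and 0.03 for Sox, which shows no pairing of the Sox libraries by replicate letter. For Oct4 the correlations of the 3 pairs were all positive, between 0.04 and 0.34. With a replicate block the exact permutation p at the 4 Sox sites without overlap was 0.0556, the smallest it allows, in place of 0.0286, and 0.111 in place of 0.0571 at the 3 Oct4 sites. Unknown depth, tied top scores and unequal list lengths limit every rank.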
